A study of Mus musculus with 8 samples.

Results

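Resident-like macrophage nuclei were picked out of mouse gastrocnemius, a calf muscle, by the RNA of 5 genes: Mrc1, F13a1, Cd163, Csf1r and Adgre1. A nucleus was a member when it held at least 4 UMIs of these genes (unique molecular identifiers, 1 per captured RNA molecule) with at least 3 of the genes detected. Its UMIs of H2-Ab1, H2-Aa, H2-Eb1, Cd74 and Ccr2 together had to be fewer than those of Mrc1, F13a1 and Cd163 together, and Pecam1 and Pdgfra had to be at 0. The rule was met by 682 of the 47059 retained nuclei of the 4 libraries made with 10x Genomics droplets. Of these, the Old library held 307, Young 155, Running 159 and Sedentary 61. The rule used measured counts of the same nuclei, so the 12 genes named in it describe the members and carry no test.

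The study asked how nuclei of this muscle differ with age and with running. All mice were wild type C57BL/6 and all tissue was gastrocnemius, frozen in liquid nitrogen as whole muscle. Old mice were 20 months old and Young mice 3 months old. Running mice were 11 months old when they began 2 months of treadmill running at 9 m/min for 30 min a session, and Sedentary mice were of the same starting age without training. Each of the 4 groups had 1 library in the 10x set and 1 in a second set made with another droplet system. The number of mice behind a library is not given in the sources used here. With 1 library per group and set, differences between groups in the 10x set have no replicate check, and every interval given for them is a 95% interval that covers counting error only.

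Macrophages of skeletal muscle lie between fibres and along vessels, where they take up dead cells, debris and iron and release factors that act on stem cells and fibroblasts. Many settle early in life and renew themselves locally with the help of CSF1 and IL-34, both ligands of the receptor made from Csf1r. Mrc1 (the mannose receptor CD206), Cd163 (the receptor for haemoglobin bound to haptoglobin) and F13a1 (the A chain of the transglutaminase factor XIII) mark this resident kind. MHC class II genes and the chemokine receptor Ccr2 mark monocyte-derived macrophages and dendritic cells instead.

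Promoters of the 3 genes that set the members apart from MHC-II nuclei are shown here because the rule rests on their RNA. They come from RefSeq (GRCm38.p6), run from 250 bases before to 50 bases after the start of transcription, and are written 5′ to 3′ on the strand of the gene. Capitals mark GAGGAAG or its reverse complement CTTCCTC, a core of the sequence bound by PU.1, the factor encoded by Spi1 that drives myeloid development.
Mrc1 (chr2:14229164-14229463, + strand): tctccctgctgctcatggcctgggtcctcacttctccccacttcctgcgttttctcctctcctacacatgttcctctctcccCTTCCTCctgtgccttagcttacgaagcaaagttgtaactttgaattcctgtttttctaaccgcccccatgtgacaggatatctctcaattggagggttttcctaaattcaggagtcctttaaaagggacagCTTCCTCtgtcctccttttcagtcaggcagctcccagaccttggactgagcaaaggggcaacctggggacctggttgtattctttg
F13a1 (chr13:37050195-37050494, - strand): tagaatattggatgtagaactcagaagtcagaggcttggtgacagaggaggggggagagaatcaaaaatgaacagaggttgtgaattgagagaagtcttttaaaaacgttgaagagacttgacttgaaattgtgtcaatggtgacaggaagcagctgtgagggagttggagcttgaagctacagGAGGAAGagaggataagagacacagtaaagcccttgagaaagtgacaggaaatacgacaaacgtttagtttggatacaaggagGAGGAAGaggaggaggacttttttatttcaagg
F13a1, second start (chr13:37049164-37049463, - strand): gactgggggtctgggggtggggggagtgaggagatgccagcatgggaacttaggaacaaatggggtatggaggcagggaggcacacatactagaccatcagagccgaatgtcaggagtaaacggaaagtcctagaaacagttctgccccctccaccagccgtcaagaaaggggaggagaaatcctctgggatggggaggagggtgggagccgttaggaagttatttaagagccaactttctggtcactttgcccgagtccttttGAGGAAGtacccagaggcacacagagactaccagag
Cd163 (chr6:124304401-124304700, + strand): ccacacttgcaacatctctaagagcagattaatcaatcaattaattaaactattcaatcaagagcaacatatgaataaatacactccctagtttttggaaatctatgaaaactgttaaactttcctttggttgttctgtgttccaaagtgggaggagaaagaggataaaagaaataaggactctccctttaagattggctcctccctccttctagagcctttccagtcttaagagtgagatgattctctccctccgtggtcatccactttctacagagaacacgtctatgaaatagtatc
On both strands the letters occurred 2 times in the Mrc1 window, 2 times and 1 time in the F13a1 windows and 0 times in the Cd163 window. Of all 32851 RefSeq promoter windows of this length, 13.6% held the letters. Of 17 windows of 13 matched genes in the list of resident macrophage genes outside the rule, 6 held them (35.3%), those of Cbr2, Fcna, Ltc4s, Pf4 and Selenop. These matches are a description of the letters. Spi1 RNA stood at 249, 248, 208 and 188 CPM (UMIs of the gene over all UMIs of the summed nuclei, times 10 to the power of 6) in members of the Old, Young, Running and Sedentary libraries, against 6.43, 3.11, 1.89 and 4.39 CPM in all other nuclei.

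Retained nuclei of the 10x set numbered between 10587 and 12991 per library. All nuclei of a library, before filtering, held 23390969 to 44454427 UMIs. The Sedentary library was the shallowest, with a median of 1664 UMIs per nucleus against 2790 to 3001 in the other 3. Its member nuclei were shallower too, with a median of 1460 UMIs against 2397 to 2586. Between 30 and 46 cell barcodes were shared by any 2 of these libraries, and 0 of them belonged to a member in both. In the second library set, the rule was met by 0 of 4772 Old nuclei, 0 of 4510 Young nuclei, 1 of 4228 Running nuclei and 0 of 4234 Sedentary nuclei, where a count of 0 allows shares of up to 0.0629%, 0.0665% and 0.0709% in the 3 libraries without a member. All values below are of the 10x set.

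Levels of the 5 marker genes are given first, as a description. The rule selected nuclei on these genes, so their levels do not check the label. Mrc1 (chromosome 2, 14229392 to 14332057 on GRCm38) stood at 3057, 3457, 3883 and 2652 CPM in members of Old, Young, Running and Sedentary, and its lowest fold over all other nuclei of the same library was 57.0. F13a1 (chromosome 13, 36867178 to 37050244) stood at 4401, 6372, 5444 and 3763 CPM. Cd163 (chromosome 6, 124304656 to 124330527) stood at 790, 754, 1302 and 546 CPM. Of these 3 genes F13a1 was lowest in the Sedentary members and highest in the Young ones, while Mrc1 and Cd163 were highest in the Running ones. Csf1r, the receptor for CSF1, stood at 448, 494, 520 and 260 CPM, and Adgre1, which encodes the F4/80 antigen, at 646, 826, 791 and 564 CPM. Lowest-library folds over all other nuclei were 96.1 for F13a1, 63.4 for Cd163, 60.9 for Csf1r and 68.6 for Adgre1.

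Most members lay well inside the rule. They held a median of 23 marker UMIs in Old, 26 in both Young and Running, and 12 in Sedentary. All 5 genes were detected in 33.9%, 31.6%, 39.6% and 9.84% of members, and exactly 3 genes in 27.4%, 27.1%, 22.6% and 60.7%, so that the Sedentary members met the rule on fewer genes. Exactly 4 UMIs, the lowest number allowed, were held by 5, 2, 2 and 6 members. Just outside it, 3, 1, 2 and 4 nuclei held exactly 3 UMIs of 3 genes, and 29, 29, 41 and 28 nuclei held at least 4 UMIs of only 2 genes. Of 1227 nuclei with at least 4 UMIs, 906 had 3 genes, and among those that also had fewer MHC-II and Ccr2 UMIs the condition on Pecam1 and Pdgfra removed 73. F13a1 was found in 98.7%, 98.7%, 99.4% and 100% of members but also in 3.51%, 1.31%, 2.32% and 2.58% of myonuclei, which should lack it, at median depths of 3580.5, 3243, 3164 and 1791 UMIs in the latter. Mrc1 was found in 6.70%, 14.1%, 7.06% and 2.57% of myonuclei, and shares in members are read against these.

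RNA of other cell types was present in the members at unequal levels. The 10 myonucleus markers summed to 13291, 10206, 12369 and 22746 CPM in members of Old, Young, Running and Sedentary, against 53674 to 71116 CPM in all other nuclei. Members of the Sedentary library thus carried the most myonuclear RNA. The 5 T cell markers summed to 18.7 to 71.7 CPM, the 4 B cell markers to 0 to 8.96 CPM and the 4 neutrophil markers to 43.3 to 89.6 CPM. Adipocyte markers summed to 463 to 737 CPM in members and to 498 to 604 CPM in all other nuclei. The part of this RNA in the differences between libraries was not tested. Values without the members richest in it are given for the counts of genes and for some single genes of Old against Young.

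**Figure D1:**
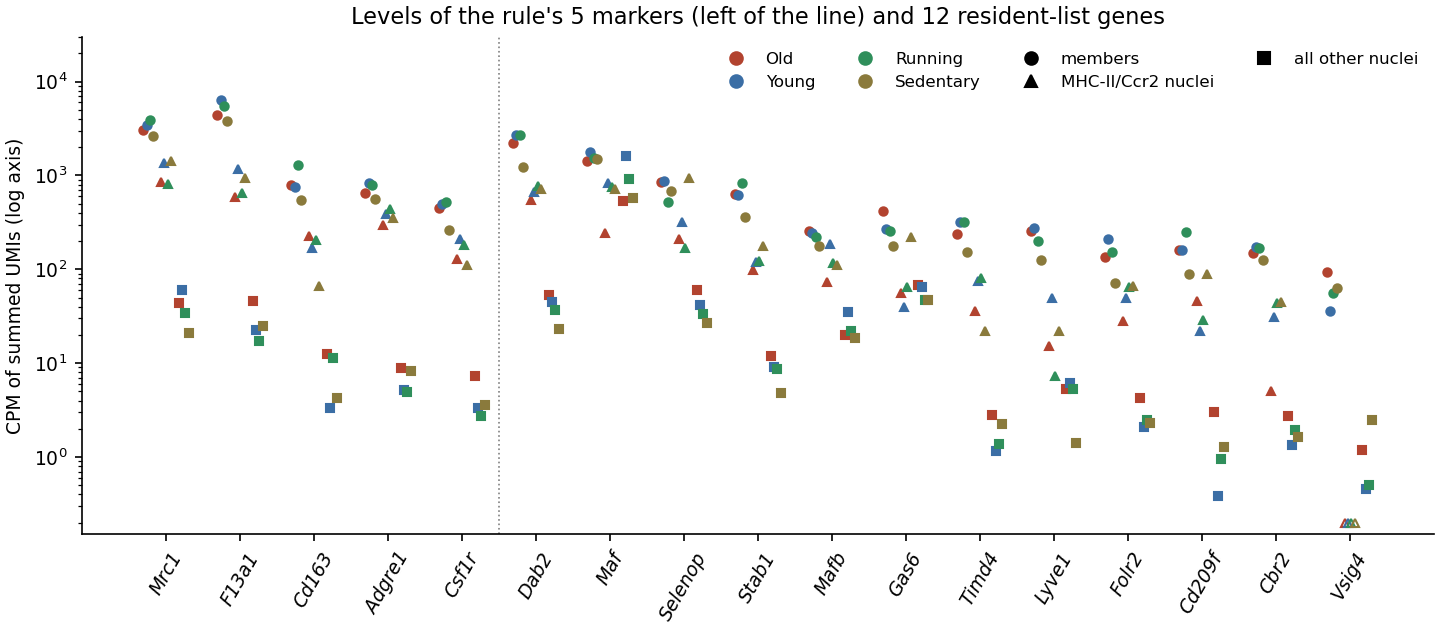
Level of 17 genes in CPM of summed UMIs (log axis) by class of nucleus (circles, members, which are the resident-like nuclei; triangles, MHC-II/Ccr2 nuclei; squares, all other nuclei) and library (colour). The 5 genes of the rule stand left of the dotted line; Vsig4 had 0 UMIs in MHC-II/Ccr2 nuclei of all 4 libraries and is drawn there with open symbols at the foot of the axis.

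Beyond the rule, members carried the RNA of many receptors of tissue macrophages. The 15 genes with the highest lowest-library fold over all other nuclei, among those at 100 CPM or more in members of every library, were Tlr7, Ms4a7, Cd33, C5ar1, Timd4, Clec10a, Mctp1, Gm21188, Cbr2, Stab1, Lair1, P2ry6, Ednrb, Aoah and Kcnk13. They followed from the choice of nuclei and carry no test. Tlr7, a sensor of single-stranded RNA in endosomes, stood at 160, 174, 229 and 143 CPM in members of Old, Young, Running and Sedentary, and its lowest fold was 80.7. Timd4, a receptor for phosphatidylserine on dying cells that marks long-lived resident macrophages, stood at 237, 321, 320 and 152 CPM, with a lowest fold of 68.0. C5ar1, the receptor for complement fragment C5a, stood at 154, 167, 107 and 116 CPM, with a lowest fold of 70.9. Stab1, a scavenger receptor, stood at 638, 612, 833 and 358 CPM, with a lowest fold of 53.8. Members of Sedentary had the lowest levels of Tlr7, Timd4 and Stab1, and those of Running the lowest of C5ar1.

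Lyve1, a hyaluronan receptor shared by lymphatic vessels and perivascular macrophages, was found in only some of the members. A UMI of Lyve1 was seen in 39.7% of Old, 37.4% of Young, 31.4% of Running and 14.8% of Sedentary members, against 0.812%, 0.262%, 0.860% and 0.291% of myonuclei. Timd4 was seen in 32.6%, 42.6%, 44.7% and 23.0% of members and in at most 0.339% of myonuclei. Folr2, a folate receptor of resident macrophages, was seen in 29.3%, 33.5%, 30.2% and 11.5% of members. These shares lay above those in myonuclei in every library, and the lowest of each was in the shallower Sedentary members. Vsig4, a receptor for complement C3b, was seen in 17.9%, 7.74%, 13.2% and 6.56% of members and in 0 MHC-II/Ccr2 nuclei of any library.

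Members made up 2.63% of retained nuclei in the Old library (exact Clopper-Pearson interval 2.34 to 2.93), 1.31% in the Young one (1.12 to 1.54), 1.22% in the Running one (1.04 to 1.43) and 0.576% in the Sedentary one (0.441 to 0.740). The share was 2.0 times as high in Old as in Young (exact conditional interval 1.64 to 2.44) and 2.12 times as high in Running as in Sedentary (1.57 to 2.90). Neither interval includes 1, but each compares 1 library with 1 other, so the spread between animals is not in it.

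Member shares were lower in libraries with a higher share of myonuclei, which was 46.4%, 64.8%, 67.1% and 78% in the order Old, Young, Running and Sedentary. Fibro-adipogenic progenitor nuclei, the connective tissue stem cells of muscle, made up 35.8%, 23.9%, 23.2% and 8.08%. Over nuclei outside the myonucleus class, members made up 4.90%, 3.73%, 3.72% and 2.62%, so that the ratio of Old to Young was 1.31 (1.08 to 1.60) and that of Running to Sedentary 1.42 (1.05 to 1.94). Of the nuclei that met either the resident-like or the MHC-II/Ccr2 rule, members were 72.9%, 68.0%, 79.5% and 76.3% in the same order, with ratios of 1.07 (0.881 to 1.31) and 1.04 (0.771 to 1.42). Both of these intervals include 1. The interval treats members as a small part of the nuclei counted. Here they were most of them, so both intervals are wider than counting error alone. The other denominators were chosen after the data had been seen.

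**Figure D2:**
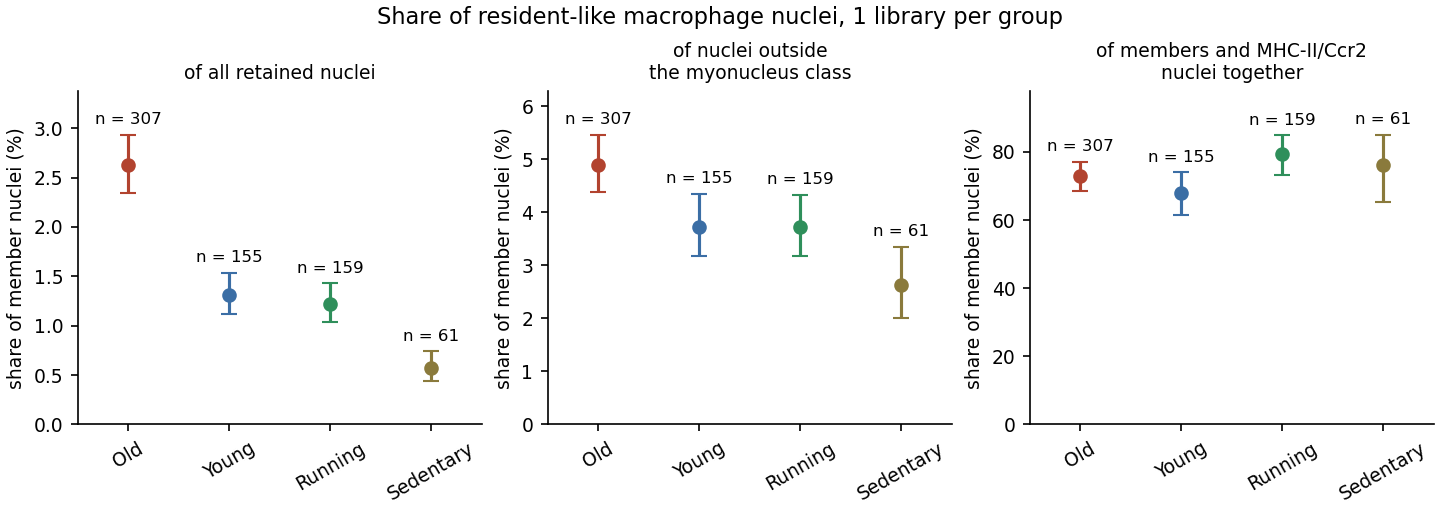
Share of resident-like (member) nuclei in percent in each library of the 10x set, of all retained nuclei (left), of nuclei outside the myonucleus class (middle) and of member and MHC-II/Ccr2 nuclei together (right). Points are shares, bars are exact Clopper-Pearson intervals of counting error and n is the number of member nuclei; the 2.63% of Old against 1.31% of Young on the left becomes 72.9% against 68.0% on the right.

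The nearest other nuclei of the tissue were those that met the mirror rule for MHC class II genes and Ccr2 (114 Old, 73 Young, 41 Running and 19 Sedentary nuclei). Counts were summed per library and class and compared with edgeR, with the library as a block, over the genes that neither rule used. Sedentary, with 19 such nuclei, was left out of the fit. Of 6582 genes tested, 533 were higher in members (8.1%) and 502 were lower (7.63%) at an adjusted p under 0.05, and 1639 had an unadjusted p under 0.05. The median log2 difference over all genes tested was -0.04. Nuclei of both classes were sorted by their own counts, so genes whose RNA goes with the sorting genes differ by the way the classes were made. The count was 686 without the Young library, 722 without Old and 1217 without Running.

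Resident macrophage genes outside the rule were higher in members almost without exception: 17 of 18 tested genes rose and 0 fell, with a median log2 difference of 2.23. Among all genes tested 8.1% were higher and 7.63% lower. Lyve1 stood at 257, 275, 198 and 125 CPM in members of Old, Young, Running and Sedentary and at 15.2, 49.0, 7.26 and 22.2 CPM in MHC-II/Ccr2 nuclei (log2 difference 3.4, SE 0.34, edgeR adjusted p 6.81e-07). Stab1 stood at 638, 612, 833 and 358 CPM against 99.0, 120, 123 and 177 CPM (2.60, SE 0.20, edgeR adjusted p 5.3e-08). Dab2, an adaptor for endocytosis, stood at 2231, 2664, 2695 and 1227 CPM against 553, 673, 776 and 709 CPM (1.94, SE 0.16, edgeR adjusted p 7.89e-08). Members were higher in all 4 libraries for these 3 genes, the Sedentary library outside the fit included. Timd4 rose by 2.30 on the log2 scale, Folr2 by 1.93, Cbr2 (a carbonyl reductase) by 2.95, Cd209g and Cd209f (lectins of the DC-SIGN family) by 3.47 and 2.37, and Siglec1 (sialoadhesin) by 2.24. Vsig4 had 86, 16 and 24 UMIs in members of Old, Young and Running and 0 in MHC-II/Ccr2 nuclei, so it was at least 17.7-fold higher in members against a floor of 3 UMIs over the 3 libraries. With Vsig4 at that bound the median of the list stayed at 2.23. Selenop, which encodes a selenium transport protein, rose by 1.72 but stood at 690 CPM in members and 931 CPM in MHC-II/Ccr2 nuclei of Sedentary, where Siglec1 too was lower in members (71.7 against 88.7 CPM).

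The list of dendritic cell and monocyte genes gave the opposite pattern, with 0 of 13 tested genes higher in members and 12 lower (median log2 difference -2.12). The shares over all genes tested were 8.1% higher and 7.63% lower. Clec9a, a receptor for dead cells on cross-presenting dendritic cells, had 0, 1, 2 and 0 UMIs in members of Old, Young, Running and Sedentary and 71, 32, 22 and 4 UMIs in MHC-II/Ccr2 nuclei (log2 difference -6.36, SE 0.50, edgeR adjusted p 6.31e-08). Flt3, the receptor of a dendritic cell growth factor, had 3, 0, 0 and 1 UMIs against 35, 19, 14 and 2 UMIs (-5.56, SE 0.58, edgeR adjusted p 1.07e-06). Itgax, the integrin CD11c, had 0, 1, 0 and 1 UMIs against 20, 20, 6 and 3 UMIs. These 3 dendritic cell genes were thus close to 0 in members of every library. Ciita, the activator of MHC class II transcription, stood at 96.4, 138, 152 and 44.8 CPM in members against 381, 446, 319 and 222 CPM (-1.62, SE 0.21, edgeR adjusted p 1.46e-05). Cd86, a costimulator of T cells, was the tested gene of the list that was not called, at 0.37 on the log2 scale (SE 0.26, edgeR adjusted p 0.434).

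**Figure D3:**
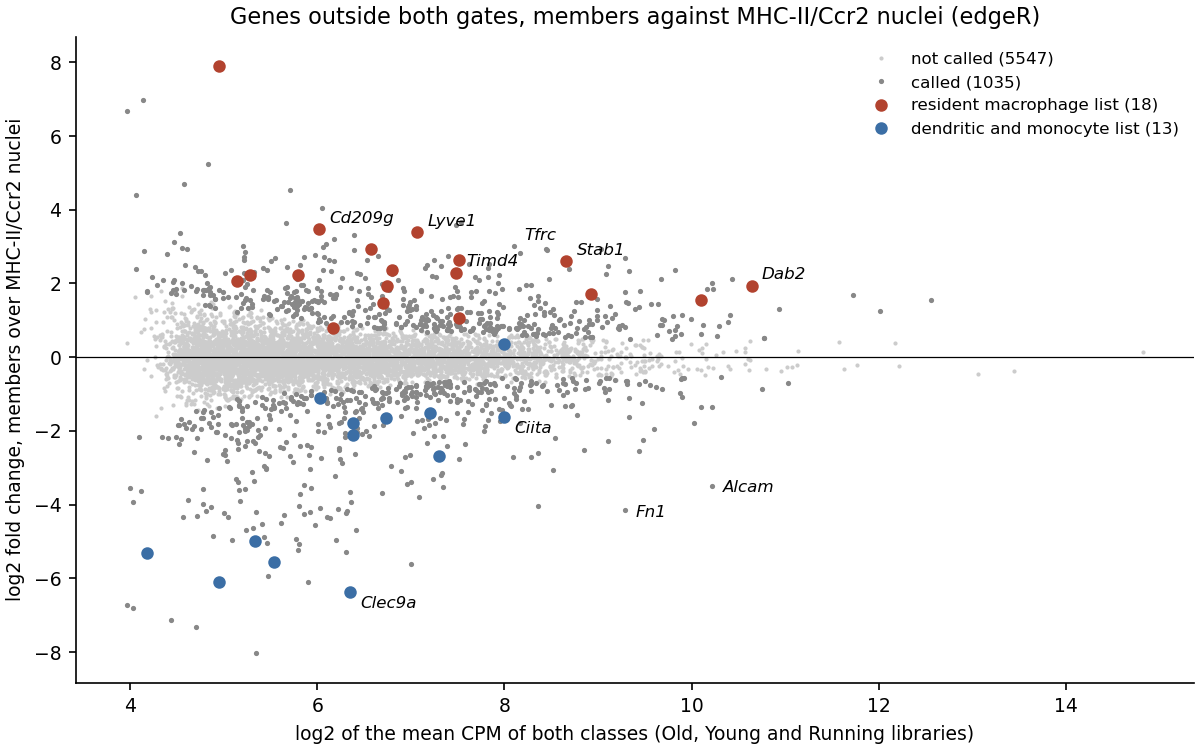
Log2 fold change of resident-like (member) nuclei over MHC-II/Ccr2 nuclei (y axis, edgeR) against the log2 of the mean CPM of both classes (x axis) for the 6582 genes tested in the Old, Young and Running libraries. Red points, the 18 tested genes of the resident list, lie above 0 and 12 of the 13 blue dendritic and monocyte genes lie below it; fitted values of genes with 0 UMIs in a class, such as Vsig4 at the top, are no bounds.

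Genes for taking up dead cells and handling lipid were called in both directions, with 8 of 17 higher, 2 lower and a median log2 difference of 0.36. All genes tested gave shares of 8.1% higher and 7.63% lower. Mertk, a kinase receptor that bridges to dying cells, stood at 370, 343, 390 and 287 CPM in members against 48.2, 125, 87.1 and 22.2 CPM (2.19, SE 0.26, edgeR adjusted p 5.21e-06). Gas6, the bridging ligand of Mertk, stood at 416, 266, 257 and 179 CPM against 55.8, 40.1, 65.3 and 222 CPM (2.64, SE 0.26, edgeR adjusted p 4.76e-07). Gas6 was thus higher in members of the 3 fitted libraries and lower in those of Sedentary. Abca1, which exports cholesterol, rose by 1.96, and Apoe, an apolipoprotein, by 1.12. Lpl, which splits triglycerides in lipoproteins, fell by 1.87 and Itgav, an integrin, by 1.58.

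Complement genes were mostly higher in members, 8 of 11 tested, with 2 lower and a median log2 difference of 1.18. Beside them, 8.1% of all genes tested were higher and 7.63% lower. C4b, which encodes component C4, stood at 337, 219, 427 and 170 CPM in members against 25.4, 62.4, 109 and 111 CPM (2.53, SE 0.30, edgeR adjusted p 5.21e-06). C1qa, a chain of the first component, stood at 497, 702, 352 and 466 CPM against 216, 343, 203 and 554 CPM (1.05, SE 0.18, edgeR adjusted p 0.00035). C1qc rose by 1.18, while C1qb (0.78) lost its call without Old (edgeR adjusted p 0.185) or without Young (0.0617), as did C3ar1 (1.38) without Old (0.126). The receptor C5ar1 rose by 1.64. Itgb2 and Itgax, the chains of an integrin complement receptor, fell by 1.5 and by 6.1.

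Of 12 tested genes of haem and iron handling, 4 were higher and 0 lower (median 0.61). The shares over all genes tested, 8.1% higher and 7.63% lower, stand beside the iron, scavenger and lysosomal counts alike. Tfrc, the transferrin receptor that brings iron into cells, stood at 417, 540, 502 and 242 CPM in members against 38.1, 75.8, 79.8 and 66.5 CPM (3.01, SE 0.24, edgeR adjusted p 5.46e-08). Blvrb, a biliverdin reductase, rose by 2.25 and Cp, the ferroxidase ceruloplasmin, by 2.17. Trf, which encodes transferrin, rose by 0.83 and lost its call at a similar size without Old (log2 difference 0.81, edgeR adjusted p 0.077) or without Young (0.75, 0.116). Of 14 tested scavenger and lectin receptors, 4 were higher and 0 lower (median 0.42). They were Msr1 (2.48), Colec12 (2.92), Clec10a (1.53) and Cd36 (0.83), of which Cd36 was not called without Young (edgeR adjusted p 0.0564). Lysosomal genes were higher in 6 of 17 and lower in 2 (median 0.43), led by Tfec, a transcription factor of the MiT family, at 2.64 and by the protease genes Ctsc and Ctsb at 1.45 and 1.32. The other 3 higher genes (Lamp2, Grn and Mitf) and both lower ones (Ctss and Ctsz) lost their calls without Young (edgeR adjusted p 0.0646 to 0.163), and Lamp2, Grn and Ctsz also without Old (0.18 to 0.518).

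Growth factor and matrix genes were called in both directions, 6 of 13 higher and 2 lower (median 0.55). For all genes tested the shares were 8.1% higher and 7.63% lower. Igf1, a growth factor for muscle and its stem cells, stood at 315, 427, 294 and 457 CPM in members against 78.7, 93.6, 65.3 and 88.7 CPM (2.11, SE 0.22, edgeR adjusted p 1.15e-06). Pdgfc, a ligand for the PDGF receptor of connective tissue cells, stood at 357, 303, 329 and 466 CPM against 27.9, 31.2, 21.8 and 399 CPM (3.59, SE 0.28, edgeR adjusted p 5.3e-08). The MHC-II/Ccr2 nuclei of Sedentary thus stood close to the members for Pdgfc and far below them for Igf1. Fn1, which encodes fibronectin, stood at 44.4, 133, 39.7 and 8.96 CPM in members against 1284, 1074, 1190 and 1086 CPM and fell by 4.16 on the log2 scale (SE 0.28, edgeR adjusted p 2.01e-08). Nrp1, a co-receptor for VEGF and semaphorins, rose by 1.39 and Mmp9, a matrix protease, by 1.89.

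Interferon-response genes were higher in members in 4 of 7 tests and lower in 0 (median 1.79): Oas2, Ifi204, Ifi207 and Gbp7, by 1.79, 1.95, 1.79 and 2.36. Of 9 cytokine and inflammatory signalling genes 2 were higher, Tlr7 (2.34) and Tlr4 (1.09), the latter lost without Old (edgeR adjusted p 0.0525). Il1b, the inflammatory cytokine, had 0 UMIs in members of all 4 libraries. Of 5 chemokine genes, Ccl8 was higher, with 25, 14 and 15 UMIs in members of Old, Young and Running and 0 in MHC-II/Ccr2 nuclei, at least 7.59-fold, although both classes had 5 UMIs in Sedentary. Ccl6 was lower by 0.67 and was not called without Old (edgeR adjusted p 0.423) or without Young (0.304). Of 7 alternative activation genes Clec10a rose, and Retnla, a secreted product of IL-4 signalling, fell by 1.96, with 311, 431, 194 and 224 CPM in members against 1718, 1368, 617 and 1153 CPM. Irf4 fell by 0.83 and lost its call without Old (edgeR adjusted p 0.441) or without Young (0.188). The alternative activation list thus held called genes in both directions (median 0.39), where over all genes tested 8.1% were higher and 7.63% lower.

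Of 21 tested genes of myeloid cells in general, 2 were higher in members and 8 lower (median -0.13). Over all genes tested 8.1% were higher and 7.63% lower. The count of higher genes is thus near the share over all genes, and that of lower genes lies above it. Rbpj, the transcription factor of Notch signalling, stood at 6979, 10059, 9842 and 5465 CPM in members against 2240, 3828, 3186 and 3968 CPM (1.56, SE 0.14, edgeR adjusted p 3.02e-07). Ptprc, the leukocyte antigen CD45, stood at 589, 657, 607 and 340 CPM against 1690, 1658, 1408 and 1219 CPM (-1.35, SE 0.16, edgeR adjusted p 4.3e-06). Irf8, a factor for dendritic cell and monocyte fate, fell by 1.92 and Mpeg1, a pore-forming protein of macrophages, by 2.64. Of the colony-stimulating factor receptors, Csf2ra, a chain of the GM-CSF receptor, fell by 1.48, and Csf3r, the G-CSF receptor, rose by 1.35 and lost its call at a similar size without Old (log2 difference 1.29, edgeR adjusted p 0.125) or without Young (1.21, 0.156). Across the lists 91 genes were called, and 25 of them lost the call when 1 library was left out: 17 without Old, 19 without Young and 1 without Running.

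Among genes at 100 CPM or more in the higher class and with the same direction in all 4 libraries, those with the largest rises were Sema6a, Ednrb, Pdgfc, Cd209g, Lyve1, Gm30382, Afap1l1, Fam118a, Tfrc and Cbr2. Sema6a, a membrane semaphorin, had 89, 56, 64 and 8 UMIs in members against 1, 2, 2 and 1 (4.06, SE 0.44, edgeR adjusted p 1.86e-06). Ednrb, the endothelin B receptor, stood at 357, 388, 287 and 170 CPM in members against 30.4, 22.3, 29.0 and 44.3 CPM (3.67, SE 0.28, edgeR adjusted p 5.3e-08). Those with the largest falls were Clec9a, Bcl11a, Gm36723, Cd244a, Ap1s3, Frmd5, Grap2, Gpr141, Dna2 and Klri1, with log2 differences from -6.36 to -4.55. Bcl11a, a transcription factor of lymphoid and plasmacytoid dendritic cells, had 1, 0, 2 and 2 UMIs in members against 81, 25, 5 and 7. Each of these genes had at most 7 UMIs in the members of any library.

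Members of Old and Young were then set side by side to ask how their RNA differed with age. Of 4884 genes with at least 50 UMIs over both, 278 were at least 2-fold higher in Old (5.69%) and 69 at least 2-fold lower (1.41%), with a median ratio of 1.02. Without the 38 Old and 13 Young members of the groups of nuclei rich in muscle or adipocyte RNA (described with the sub-clusters), 156 of 4048 genes were higher and 57 lower. No test was possible with 1 library against 1, and ratios are given with exact conditional intervals.

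Gm20619, a long noncoding RNA gene on chromosome 6 (6248659 to 6378675), had 217 UMIs in Old members and 1 in Young members, a ratio of CPM of 104 (18.5 to 4129), against 3.26 in all other nuclei. Dpyd, the enzyme that breaks down uracil and thymine, had 240 UMIs in Old and 18 in Young (ratio 6.39, 3.96 to 11), against 2.15 in all other nuclei. Cacna1a, a calcium channel subunit, had 171 and 15 UMIs (5.47, 3.22 to 9.98), against 1.61. These 3 genes stayed above 5-fold without the nuclei rich in other RNA (ratios of 102, 5.77 and 5.78). Thinned to 1000 UMIs a nucleus, Gm20619 had 76 UMIs in Old and 0 in Young, at least 12.1-fold higher against a floor of 3 UMIs. Trabd2b and Smoc1 did not stay above 5-fold without the nuclei rich in other RNA. Trabd2b had 96 UMIs in Old and 2 in Young (ratio 23.0, 6.20 to 193), but a ratio of 1.60 without those nuclei. Smoc1 came to 1.24 from 6.43. Slc7a15 (58 and 3 UMIs), Slc22a23 (66 and 4) and Ntm (49 and 3) completed the 8 genes with the largest ratios.

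Iigp1, an interferon-inducible GTPase, had 30 UMIs in Old members and 97 in Young members (32.5 against 219 CPM, ratio 0.148, 0.0950 to 0.225). In all other nuclei its ratio was 0.287. Other interferon genes lay on the same side: of 6 measured genes of the list 3 were at least 2-fold lower in Old and 0 higher, with a median ratio of 0.613 and 1 of 6 above 1. Among all 4884 genes 1.41% were lower and 5.69% higher, with a median ratio of 1.02. Stat2, which carries interferon signals to the nucleus, stood at 54.1 CPM in Old and 115 in Young (0.470, 0.312 to 0.709) and Oas2, a sensor of double-stranded RNA, at 70.4 and 178 CPM (0.395, 0.280 to 0.555). Ratios of both genes in all other nuclei were 0.674 and 0.691, and without the nuclei rich in other RNA those of members were 0.466 and 0.422. Fn1 stood at 44.4 and 133 CPM (0.333, 0.218 to 0.505) but at 1.23 in all other nuclei. Lars2, the mitochondrial leucyl-tRNA synthetase, had 485 and 698 UMIs (0.333, 0.296 to 0.375). Thsd4, Gm26714, Znfx1, Lpcat3 and Edil3 were the other genes with the smallest ratios, from 0.221 to 0.339.

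Of 18 measured resident macrophage genes, 1 was at least 2-fold higher in Old and 0 lower, a share near the 5.69% and 1.41% over all genes, with a median ratio of 0.952 against 1.02. Vsig4 was the one past 2-fold, with 93.1 CPM in Old against 36.1 in Young (2.58, 1.5 to 4.71). Lyve1 stood at a ratio of 0.932 (0.746 to 1.17), Stab1 at 1.04 (0.901 to 1.21), Timd4 at 0.740 (0.596 to 0.920) and Folr2 at 0.633 (0.480 to 0.836). Slc40a1, the iron exporter ferroportin, had 73 and 15 UMIs (2.33, 1.33 to 4.38), the single gene of 12 in the iron list past 2-fold. Of 10 complement genes 1 was higher (Vsig4) and 0 lower, and of 17 lysosomal and 14 scavenger genes 0 passed 2-fold either way. Vegfa, the vascular growth factor, stood at a ratio of 2.10 (1.39 to 3.26), and 1.55 without the nuclei rich in other RNA. Pparg, a nuclear receptor high in adipocytes, stood at 2.40 (1.59 to 3.74) and at 0.574 without them.

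**Figure D4:**
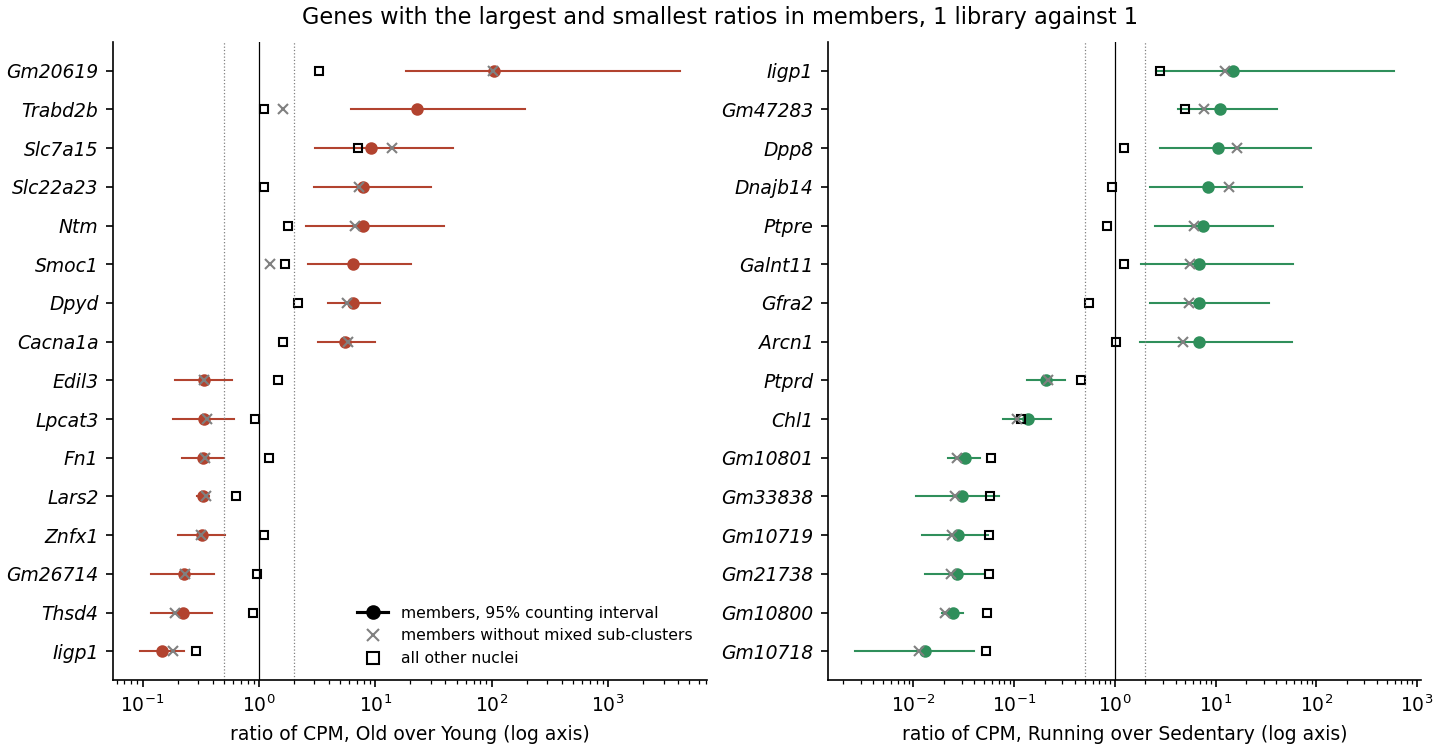
Ratio of CPM (log axis) in resident-like (member) nuclei of Old over Young (left) and Running over Sedentary (right) for the 8 genes with the largest and the 8 with the smallest ratio. Circles with bars are members with 95% counting intervals, crosses are members without the sub-clusters rich in muscle or adipocyte RNA ("mixed"), and squares are all other nuclei of the same libraries; dotted lines mark 2-fold. Trabd2b and Smoc1 move to near 1 as crosses, while the 6 Gm genes of the right panel lie low in all other nuclei too.

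Running and Sedentary members were set side by side in the same way, to ask how running went with their RNA. Of 2400 genes with at least 50 UMIs over both, 232 were at least 2-fold higher in Running (9.67%) and 92 lower (3.83%), with a median ratio of 1.11. Without the 10 Running and 8 Sedentary members of the groups rich in muscle or adipocyte RNA, 215 of 2007 genes were higher and 77 lower. The Sedentary members held 111622 UMIs in all against 428564 in Running. Genes higher in Running made up 71.6% of those past 2-fold, and 82.8% (333 against 69) when scaled by TMM factors, under which the median ratio was 1.255.

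The lowest ratios belonged to 6 predicted genes that were also low in all other nuclei of Running. Gm10800 (chromosome 2, 98666547 to 98667301) had 78 UMIs in Running members and 831 in Sedentary members (ratio 0.0244, 0.0191 to 0.0309), with 0.0542 in all other nuclei and 0.0193 in MHC-II/Ccr2 nuclei. Gm10718 (0.0130), Gm21738 (0.0270), Gm10719 (0.0276), Gm33838 (0.0301) and Gm10801 (0.0322) followed, each with a ratio between 0.0528 and 0.0594 in all other nuclei. So this difference was not particular to the members. Chl1, a neural adhesion molecule, had 22 and 42 UMIs (0.136), with 0.117 in all other nuclei, and Ptprd 39 and 49 UMIs (0.207), with 0.458.

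The largest ratio was that of Iigp1, with 57 UMIs in Running members and 1 in Sedentary members (14.8, 2.56 to 597), against 2.80 in all other nuclei. Of 4 measured interferon genes 3 were at least 2-fold higher and 0 lower (median ratio 2.86): Stat2, with 62 and 4 UMIs (4.04, 1.5 to 15.3), Ifi204, with 97 and 8 (3.16, 1.54 to 7.52), and Ifi207, with 187 and 19 (2.56, 1.60 to 4.35). Ratios of these 3 in all other nuclei were 1.81, 4.79 and 4.305. Stat2 thus stood higher in Running than in Sedentary members and lower in Old than in Young ones. Among all 2400 genes measured in Running and Sedentary members, 9.67% were at least 2-fold higher and 3.83% lower, with a median ratio of 1.11. Dpp8, a serine peptidase, had 81 and 2 UMIs (10.5, 2.83 to 88.6), Dnajb14, a chaperone partner, 65 and 2 (8.46, 2.25 to 71.4) and Ptpre, a tyrosine phosphatase, 87 and 3 (7.55, 2.5 to 37.3), with ratios of 1.23, 0.932 and 0.834 in all other nuclei. Dpp8, Dnajb14 and Ptpre each had at most 3 UMIs in Sedentary, and their intervals are wide.

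Resident macrophage genes lay mostly above 1, with 5 of 13 at least 2-fold higher in Running, 0 lower and a median ratio of 1.58. Stab1 stood at 833 against 358 CPM (2.32, 1.67 to 3.31), Dab2 at 2695 against 1227 (2.20, 1.84 to 2.64), Cd209f at 252 against 89.6 (2.81, 1.47 to 6.03), Timd4 at 320 against 152 (2.10, 1.26 to 3.71) and Folr2 at 154 against 71.7 (2.15, 1.03 to 5.18). Igf1, in contrast, stood at 294 against 457 CPM (0.643, 0.461 to 0.909), C1qa at 0.756 (0.548 to 1.06) and Selenop at 0.748 (0.574 to 0.982). Thinned to 1000 UMIs a nucleus, Dab2 came to 1.47 and Timd4 to 1.09, and among genes of iron handling Tfrc came to 1.21 and Cp to 1.20, all below 2-fold. C4b moved the other way, to 17.8 (3.08 to 713), on 65 UMIs in Running and 1 in Sedentary. Of the myeloid list 3 of 14 genes were at least 2-fold higher (Lyz2, Itgam and Cd84) and 0 lower, of the iron list 2 of 7 (Tfrc and Cp), of the complement list 1 of 7 (C4b) and of the lysosomal list 1 of 10 (Ctss). Over all genes 9.67% were at least 2-fold higher in Running and 3.83% lower. Among so few genes, 1 of 7 and 1 of 10 are near the share of higher genes. The Sedentary members carried the most myonuclear RNA of the 4 libraries, as given above, and its part in these ratios was not tested.

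Variation among the 682 members was described by clustering them on genes outside the rule, which gave 5 sub-clusters. The libraries were pooled with no correction between them, and the part of library differences in the sub-clusters was not tested. The sub-clusters were not tested, and their leading genes follow from the clustering. Sub-cluster 1 held 239 nuclei with a median of 1588 UMIs and was led by Gm10718, Gm11168, Gm33838 and Gm10800. It took in 24.4% of Old, 16.1% of Young, 62.3% of Running and 65.6% of Sedentary members. Gm10800 stood at 3341, 7622, 371 and 12758 CPM in its nuclei of these libraries, so that the leading genes were low in its Running nuclei.

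Sub-cluster 2 held 202 nuclei, 50.2% of Old members against 7.10% of Young, 15.7% of Running and 19.7% of Sedentary. It was led by Gm20619, Slc40a1, Hsf3 and Slc15a2, seen in 33.2%, 18.8%, 22.8% and 26.7% of its nuclei. Gm20619 stood at 387 CPM in its Old nuclei, 0 in its Young nuclei, 359 in its Running nuclei and 59.8 in its Sedentary nuclei. Slc40a1 stood at 128, 53.9, 79.7 and 538 CPM. The Young and Sedentary values of both genes rest on only 11 and 12 nuclei. Ccr2 stood at 1.87 CPM here, against 42.6 in sub-cluster 1 and 152 in sub-cluster 4, and Mertk at 502 CPM against 292 and 428. Mki67, a marker of dividing cells, had 7, 1, 2 and 0 UMIs in members of Old, Young, Running and Sedentary, all in sub-clusters 1 and 2.

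Sub-cluster 4 held 172 nuclei, 68.4% of Young members against 13% of Old, 15.7% of Running and 1.64% of Sedentary. Its leading genes were Cd226, Thsd4, Fn1, Iigp1 and Alcam, and it had the highest Cd74 and H2-Ab1 of the 5, at 1062 and 403 CPM, and the highest Mrc1 and F13a1, at 4114 and 6832 CPM. Each leading gene was seen in a minority of its nuclei: Cd226 and Thsd4 in 10.5%, Fn1 in 7.56%, Iigp1 in 15.7% and Alcam in 28.5%. In the other members Cd226 was seen in 1.57%, Thsd4 in 2.35%, Fn1 in 4.90%, Iigp1 in 5.69% and Alcam in 12.55%. Iigp1 stood at 249 CPM in sub-cluster 4 against 40.9 CPM in the other members. Within it, Iigp1 was at 119 CPM in Old, 264 in Young and 377 in Running nuclei, where Sedentary held 1 nucleus.

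Sub-clusters 3 and 5 carried the RNA of other cell types. Sub-cluster 3 (63 nuclei, 5.66% to 13.1% of the members of a library, median of 5168 UMIs) was led by muscle genes, with Ttn, the giant sarcomere protein, at 34493 CPM against 1577 CPM in the other members. Sub-cluster 5 (6 nuclei, 5 of Old and 1 of Running, median of 7624 UMIs) was led by adipocyte genes such as Lgals12, Cidec and Plin1, with Plin1 at 970 CPM against 7.0 CPM. Mrc1 stood at 1378 and 1383 CPM in these sub-clusters against 3455 to 4114 CPM in the other 3. Without both, chosen after the data had been seen, 613 members remained (269 of Old, 142 of Young, 149 of Running and 53 of Sedentary).

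**Figure D5:**
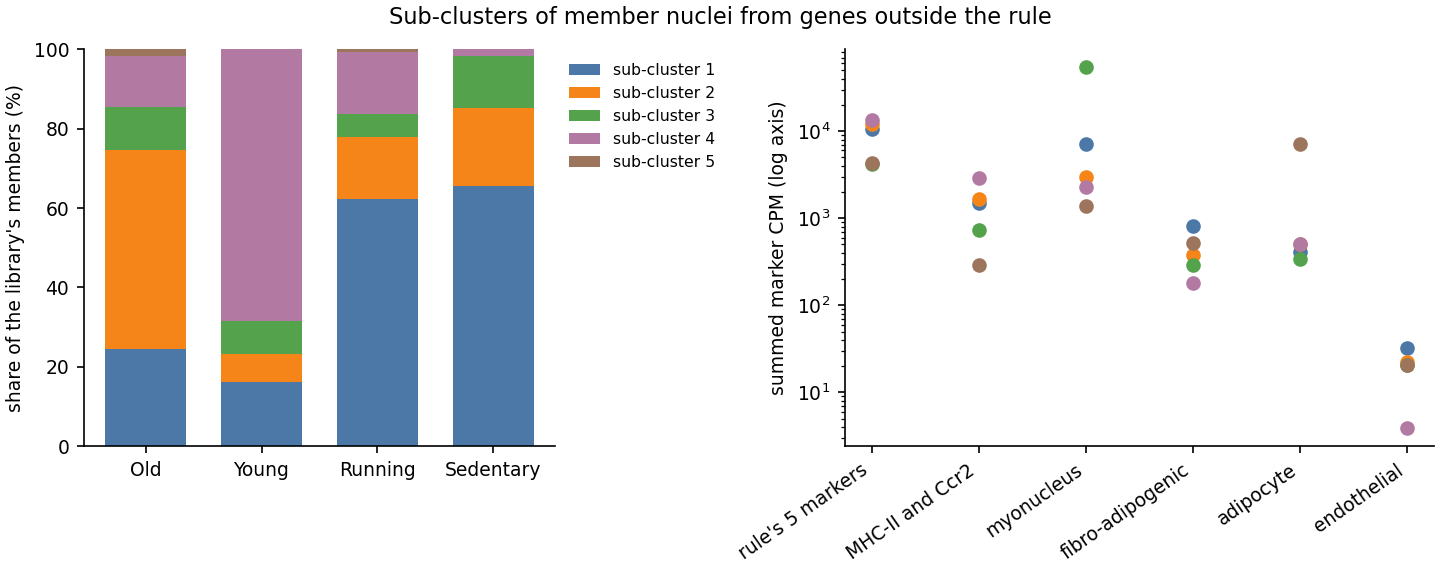
Left, share in percent of the resident-like (member) nuclei of each library in the 5 sub-clusters; right, summed CPM (log axis) of marker lists in each sub-cluster, in the same colours. Sub-cluster 4 holds 68.4% of Young members and sub-cluster 2 holds 50.2% of Old members, and sub-clusters 3 and 5 stand out for myonucleus and adipocyte markers.

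The ligands of the CSF1 receptor had few UMIs in members. Csf1 stood at 98.2, 116, 76.3 and 64.1 CPM in fibro-adipogenic progenitor nuclei of Old, Young, Running and Sedentary and at 8.66, 9.03, 11.7 and 26.9 CPM in members (8, 4, 5 and 3 UMIs). Il34 stood at 8.38, 32.1, 19.5 and 20.5 CPM in the progenitors and at 3.25, 0, 2.33 and 35.8 CPM in members (3, 0, 1 and 4 UMIs), so that the 4 UMIs of the Sedentary members gave a level above that of the progenitors. Nuclei assigned to no cell type stood above the progenitors for Il34 in every library, at 22.8, 90.1, 51.4 and 90.3 CPM. The receptor Csf1r, in contrast, stood at most at 5.94 CPM in the progenitors.

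Ldha, the lactate dehydrogenase chain at the centre of the study, had 45, 33, 19 and 4 UMIs in members of Old, Young, Running and Sedentary. It stood at 48.7 CPM in Old against 74.5 in Young (ratio 0.654, 0.408 to 1.06), an interval that includes 1. Of 9 measured glycolysis genes 0 were 2-fold higher or lower in Old, and of 4 in Running Aldoa was higher (2.71) and Pfkm lower (0.324). Of 13 glycolysis genes with at least 50 UMIs in members, 2 were at least 2-fold above all other nuclei in all 4 libraries. Their median lowest-library fold was 0.402. For all genes at this floor, the same values were 1174 of 6022 and 0.883. The lowest-library fold is the smallest of 4 values, so it does not give the level in each library. Myonucleus markers stood at 22746 CPM in Sedentary members against 12369 in Running ones, and the part of this RNA in these ratios was not tested. Against MHC-II/Ccr2 nuclei 1 of 14 tested glycolysis genes was called, Pfkp, which fell by 2.10. This is near the shares over all genes tested, 8.1% higher and 7.63% lower. Of the 8 DNA repair genes and 8 proteostasis genes named by the study, which were chosen on these samples, 0 passed 2-fold in either comparison of libraries among the 7 and 8 measured for age and the 5 and 5 measured for running, where over all genes 5.69% and 1.41% were higher and lower in Old and 9.67% and 3.83% in Running. Counts of 0 among so few genes are near these shares. Wwp1, a ubiquitin ligase, was the single one of the 16 that differed between members and MHC-II/Ccr2 nuclei (1.84, SE 0.17, edgeR adjusted p 3.02e-07). Of 4 tested genes of arrest and senescence 0 were called by edgeR, and the 12 cell cycle genes were too low in members for any test or ratio.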

How the data were processed

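Single-nucleus RNA was measured in 8 libraries of gastrocnemius, and the 4 libraries of the 10x set were used, with the second set for a count of nuclei that met the rule. The files deposited by the authors hold UMI counts, not normalized, in a matrix of genes by nuclei for each library. Per the methods, 10x reads were counted with Cell Ranger 6.1.2 and reads of the second set with PISA 0.12, both on mm10. Counting of intronic reads is not given in the sources used here. Doublets were left in, since no removal is stated. Scrublet called 4.68%, 2.62% and 2.36% of Old, Young and Running nuclei and 0% in Sedentary, where it had not worked, so the alternative left out the 6% with the highest scores.

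Retained nuclei had over 200 but below 6000 detected genes, and mitochondrial UMIs below 6%. Depth per library was 23390969 to 44454427 UMIs over all nuclei before filtering. MHC-II/Ccr2 nuclei mirrored the rule (at least 4 UMIs and 3 genes of the other list, at or above Mrc1, F13a1 and Cd163, with lymphocyte genes at 0). Counts were summed per library and class, without 13 mitochondrial and 88 ribosomal protein genes, and tested by quasi-likelihood in edgeR 4.0.16 (R 4.3.3; TMM scaling, filterByExpr, library block, Benjamini-Hochberg adjustment, threshold 0.05, 2 residual degrees of freedom, common dispersion 0.0235). The pairing of both classes comes from their shared library. Log2 differences are edgeR estimates. Libraries were compared as ratios of CPM with exact conditional binomial intervals, 0 counts being set to 3. Intervals cover counting error only. Members were clustered with scanpy 1.11.5 (1500 variable genes, 15 principal components, resolution 0.5, no correction for library). Coordinates are of GENCODE vM21 on GRCm38. Counts were also simulated from this comparison (6582 genes), with the common dispersion for every gene. Changed genes were drawn only from those at 100 CPM or more. Of these, edgeR called 100% of genes changed by 2 on the log2 scale either way. It called 89.8% of those raised by 1 and 76% of those lowered by 1. Genes of lower level or with another dispersion are not covered by these shares.

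The members and the gene lists were chosen with earlier results of these data known. Named were the genes of the rule, for each comparison the genes with the largest and smallest values past the limits given there (8 each between libraries, among genes at least as high in members as in all other nuclei, 10 each against MHC-II/Ccr2 nuclei, 15 against all other nuclei), the called genes of each list with the 4 of most UMIs, Ldha, Csf1 and Il34. Alternatives were DESeq2 1.42.0, other scaling, filters, gates, thinning, folds and each library left out. Results for some genes are not reported here.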

Additional observations from a re-analysis of the deposited data

Results flagged for a closer look

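Outside the libraries used above, RNA of the 5 marker genes was present in the second library set, where 1 nucleus in all met the rule. At least 1 UMI of a marker was found in 12.9% of Old, 8.34% of Young, 4.47% of Running and 3.16% of Sedentary nuclei of that set, at median depths of 941, 1689.5, 1400.5 and 909 UMIs per nucleus. These nuclei enter no comparison above, and there were no control samples for them. The shares come from 770, 465, 223 and 150 UMIs. With 1 library per group in each set, a check for a sample far from the others of its group could not be made.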

How the results depend on the processing

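The share of members in Old was 3.0% without the condition on Pecam1 and Pdgfra, 2.13% with nuclei thinned to 1000 UMIs and 2.30% without the sub-clusters rich in muscle or adipocyte RNA. Thinned shares were 0.968% in Young and 0.422% in Sedentary. Over nuclei outside the myonucleus class shares were 4.90%, 3.73%, 3.72% and 2.62% in Old, Young, Running and Sedentary, and over both macrophage rules 72.9%, 68.0%, 79.5% and 76.3%. The ratio of Old to Young became 1.31 and 1.07 under these denominators and that of Running to Sedentary 1.42 and 1.04, and it stayed between 1.90 and 2.55 under the other settings.

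Genes called between members and MHC-II/Ccr2 nuclei numbered 1035, 555 with DESeq2, all of them among the 1035 and in the same direction, 518 after thinning, 768 with no library block (all but 1 among the 1035) and 686 to 1217 with 1 library left out. Without the sub-clusters rich in other RNA there were 1496 and with Sedentary 860. Of 2114 values of single genes under these settings 126 lost the call and 16 gained it in the same direction. Gm10800 and Gm10801, not called in the reported fit, were called lower in members after thinning (-0.66 and -0.85). A further 70 values of uncalled single genes changed sign without a call. Of the 1035 called genes, 625 of the 627 tested after thinning and 1014 of the 1015 tested without the sub-clusters kept their sign. Genes past 2-fold between Old and Young numbered 347, 132 with a floor of 100 UMIs, 674 with 30, 1027 at 1.5-fold, 65 after thinning and 213 without the sub-clusters. Between Running and Sedentary they numbered 324, and 117, 617, 826, 65 and 292 under these settings in the same order. Pparg turned from 2.40 to 0.574 (Old over Young) without the sub-clusters. Genes higher in Old made up 80.1% of those past 2-fold, 63.1% after thinning and 64.9% at 1.5-fold. Ptprd (Running over Sedentary) came to 0.115 without the highest Scrublet scores and Gm10800 to 0.0406 after thinning. The cause was not tested, except that thinning and higher floors leave fewer genes to count. Depth limits the Sedentary members most, with 111622 UMIs in 61 nuclei.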
